A study of Mus musculus with 2 samples.

Results

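The class I olfactory receptors are odorant receptors encoded side by side on mouse chromosome 7. They were taken as the genes whose older symbol runs from Olfr543 to Olfr692, with pseudogenes kept apart. Of 30739 genes that had a probe set of their own, 113 were such receptor genes, and 19 further symbols in this range were pseudogenes. RefSeq (GRCm38.p6) lists 117 protein-coding genes in the range, and the 4 without a probe set of their own were Olfr560, Olfr564, Olfr639 and Olfr643. Each of the 113 genes was read by 1 probe set. Gene expression was measured in RNA of the whole olfactory bulb (OB) of C57BL/6J mice with the Clariom D mouse array, a microarray of coding and noncoding transcripts. The PBS group inhaled aerosolized phosphate-buffered saline. The OVA group inhaled 2.5% ovalbumin, an allergen from hen's egg, for 30 min, 3 times per week for 3 weeks. In both groups the dams had received the adjuvant alum without ovalbumin before mating. The labels place the samples at postnatal day 28 and give female animals, while the methods describe male offspring. Each group was represented by 1 array of RNA pooled from 4 animals, so there is no measure of how animals vary and no difference below has a test. How precise a difference is depends on this single pair of arrays.

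Olfactory receptors are G protein-coupled receptors of the sensory neurons in the nose, and each mature neuron expresses a single receptor gene. Class I receptors resemble the receptors of fish, and many of those with known ligands respond to organic acids. Their neurons lie mostly in the dorsal olfactory epithelium and send axons to the dorsal OB. The cell bodies of these neurons are outside the OB, but their axons enter it and carry some receptor mRNA. In a bulk sample, fewer axons and less RNA per axon cannot be told apart.

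All 113 genes were assigned to chromosome 7 by RefSeq. Of these, 109 also carry a synonym from MOR0 to MOR42, numbers that are given to class I receptor families, and together they fell into 42 families. MOR6 was present only as the pseudogene Olfr588-ps1. The remaining 4 genes, Olfr596, Olfr652, Olfr681 and Olfr687, were assigned to no family. For Olfr652 and Olfr681, RefSeq gives MOR318 and MOR4014, written without a hyphen, and these were not read as family names. Olfr592 has synonyms of both MOR0 and MOR32 and was counted in MOR0.

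Class I receptor genes had mostly higher intensities on the OVA array. Differences are log2 of the deposited OVA intensity minus log2 of the deposited PBS intensity. The z-score of a gene was this difference minus the mean difference of all 65956 probe sets (0.17), divided by their SD (0.36). A gene was past the threshold from 2 upward or from -2 downward, that is, at differences of 0.90 and -0.55. Of the 113 genes, 7 (6.19%) were past the upper threshold, 0 were past the lower one, and 106 lay between them. Among all genes, 2.52% were higher past the threshold and 1.66% were lower. Since the SD in the z-score is taken over probe sets and not over animals, a gene past the threshold is not thereby shown to have changed. The difference was above 0 for 101 of the 113 genes and above the mean of the array for 90 of them. Its median was 0.43 (quartiles 0.22 and 0.66), against 0.07 for all genes. Both values depended on the processing. Other ways to take the mean and SD put 15, 16 or 21 of the 113 genes past the upper threshold (3.06%, 3.66% and 4.58% of all genes), and loess centring on signal lowered the median to 0.26, against -0.06 for all genes.

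**Figure D1:**
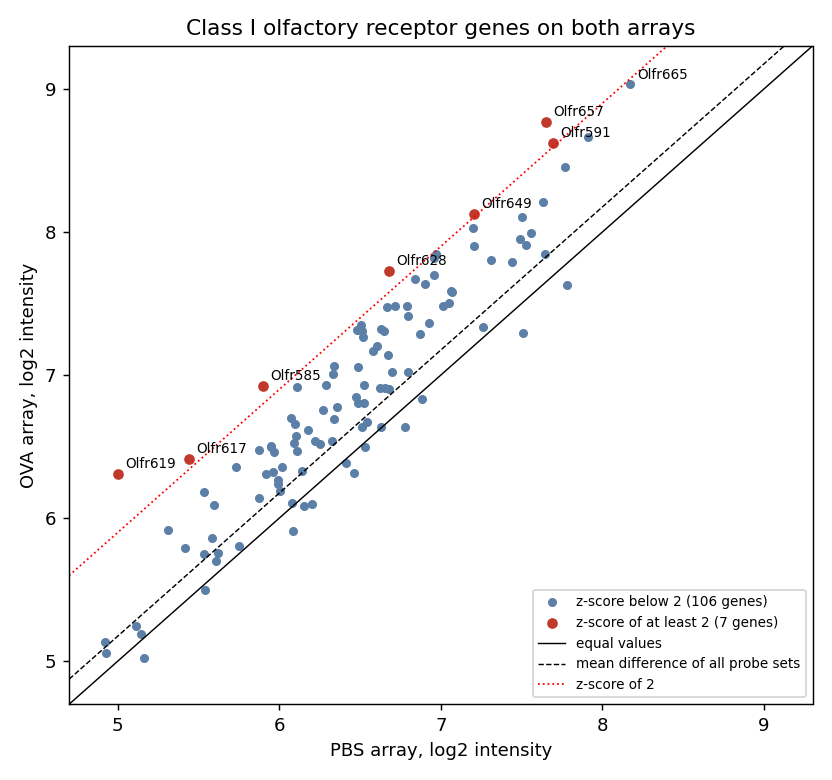
Log2 intensity of the 113 class I receptor genes on the PBS array (x axis) and the OVA array (y axis), 1 point per gene. The 7 genes past the upper threshold are drawn in red and have PBS values from 5.002 to 7.69. They include Olfr657 and Olfr591, which are among the 5 receptors with the highest mean signal. Of the 113 points, 101 lie above the line of equal values.

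Both arrays ranked the receptors in nearly the same order. Log2 intensities ran from 4.92 to 8.17 on the PBS array (median 6.49) and from 5.02 to 9.03 on the OVA array (median 6.85), and Pearson's r between the arrays was 0.93 over 113 genes that share both hybridizations. These medians lay below those of all genes, which were 7.22 on the PBS array and 7.37 on the OVA array. On the PBS array, 24 of the 113 receptors lay below the lower quartile of all probe sets (5.96). On the OVA array, 19 lay below its lower quartile (6.15), and 15 lay below it on both arrays. Among all 30739 genes, 5856 lay below the lower quartile on the PBS array, 5953 on the OVA array and 5163 on both. The receptor counts are thus not a sign of low signal particular to the receptors. The 5 receptors with the highest mean signal were Olfr665 (8.17 and 9.03 in PBS and OVA), Olfr598 (7.91 and 8.66), Olfr657 (7.65 and 8.77), Olfr591 (7.69 and 8.62) and Olfr624 (7.77 and 8.46). All 5 had higher log2 values on the OVA array, and only Olfr657 and Olfr591 were past the threshold.

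Of the 7 genes past the threshold, 4 had PBS values above the lower quartile of the array. Olfr657 of family MOR40 went from 7.65 to 8.77, which was 2.17-fold higher on the OVA array (z-score 2.60). Olfr628 of family MOR22 went from 6.68 to 7.73, 2.07-fold higher (z-score 2.41). Olfr591 of family MOR24 went from 7.69 to 8.62 (1.90-fold, z-score 2.08), and Olfr649 of MOR31 from 7.20 to 8.13 (1.90-fold, z-score 2.07). The PBS values of the other 3 genes lay below the lower quartile, where signal and background are hard to tell apart. Their log2 differences and z-scores are therefore values as measured, with no rank drawn from them and no fold given. Olfr619 of family MOR31 had log2 values of 5.002 in PBS and 6.31 in OVA (z-score 3.13). Olfr617 of the same family had values of 5.44 and 6.41 (z-score 2.20), and Olfr585 of MOR14 had values of 5.90 and 6.93 (z-score 2.36). No ligand is stated here for any of the 7.

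The threshold separated genes with close values. Just below it lay Olfr576 with a difference of 0.88 (z-score 1.94), Olfr665 with 0.86 (1.91), Olfr679 with 0.86 (1.89), Olfr616 with 0.84 (1.84) and Olfr622 with 0.84 (1.82). Between z-scores of 1.5 and 2 there were 16 genes. At the other end, the lowest differences were those of Olfr667 (-0.21), Olfr557 (-0.18), Olfr686 (-0.15), Olfr571 (-0.15) and Olfr552 (-0.14). The lowest z-score was that of Olfr667, at -1.08, with log2 values of 7.51 in PBS and 7.30 in OVA.

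Receptors with a known ligand or site of expression lay on both sides of the median. Olfr544, a receptor of azelaic acid that is also found outside the nose, had nearly equal log2 values of 6.88 in PBS and 6.83 in OVA (difference -0.05). Olfr558, which responds to isovaleric acid and is known from enterochromaffin cells of the gut, went from 5.95 to 6.50 (difference 0.55). Olfr690, another receptor of isovaleric acid, went from 6.87 to 7.29 (difference 0.42). Olfr692, known from vomeronasal neurons that respond to pup odors, went from 6.72 to 7.48 (difference 0.76, z-score 1.62). None of the 4 was past the threshold.

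The receptor families differed in their median difference, although most of them hold few genes. Only 6 families had at least 5 measured genes, and these held 46 of the 113. The highest median among them was that of MOR31 (0.69, 10 genes), with 3 genes past the threshold and 9 above the mean of the array. Among all genes, 2.52% were higher past the threshold. In MOR31, 4 of the 10 genes had PBS values below the lower quartile of the array, and Olfr617 and Olfr619 were among them. Outside the 3 past the threshold, the genes of MOR31 ran from Olfr691 (0.03) to Olfr651 (0.81). MOR14 had a median of 0.65 over 6 genes, from 0.05 for Olfr561 to 1.03 for Olfr585, both with PBS values below that quartile. If Olfr652 (MOR318, difference 0.37) were counted in MOR31, the median of MOR31 would no longer be above that of MOR14. MOR32 had a median of 0.46 over 10 genes, all with differences above 0 and none past the threshold. Medians were lower in MOR13 (0.35, 5 genes), MOR34 (0.29, 7 genes) and MOR40 (0.21, 8 genes). MOR40 held both Olfr657 (1.12) and Olfr689 (-0.02). Families thus overlapped widely, and no test of a difference between them was possible. In MOR42, a family that responds to dicarboxylic acids, Olfr543 went from 5.17 to 5.02, Olfr544 from 6.88 to 6.83, and Olfr545 from 6.70 to 7.02, and its median of -0.05 was the lowest of the 13 families with at least 3 genes.

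**Figure D2:**
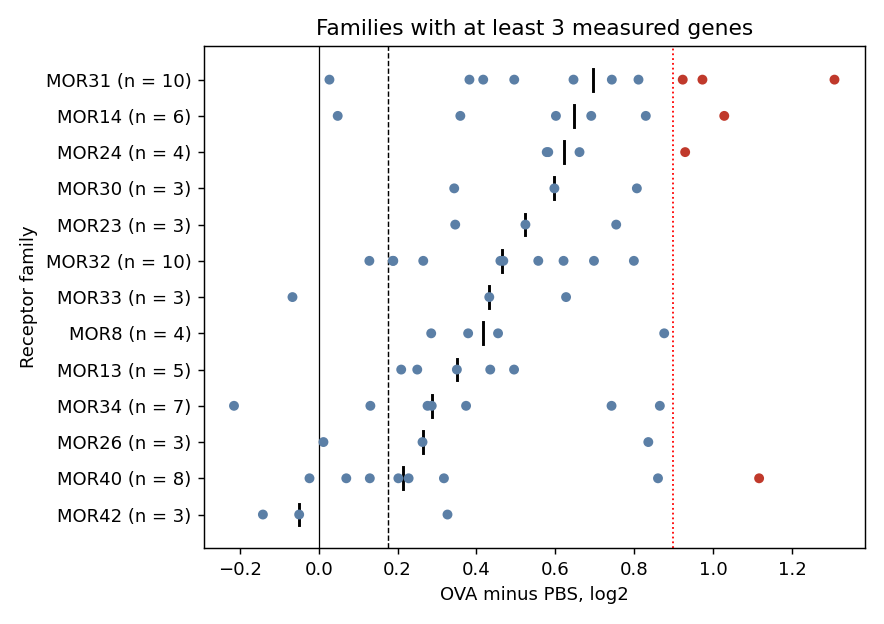
Log2 difference OVA minus PBS (x axis) of each gene in the class I families with at least 3 measured genes, 1 point per gene, with genes past the upper threshold in red and the family median as a short black line. The dashed line is the mean difference of all probe sets (0.17) and the dotted line a z-score of 2 (0.90). Medians ran from -0.05 in MOR42 to 0.69 in MOR31, with overlapping genes.

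The median difference was higher in the middle of the cluster than at its ends. In the order of the genes along chromosome 7, the 113 receptors were divided into 6 successive stretches of 18 or 19 genes. The first stretch, from Olfr543 to Olfr569, had a median difference of 0.33, with 0 genes past the threshold and 6 below 0. The median was 0.43 in the second stretch, 0.57 in the third, 0.43 in the fourth and 0.37 in the fifth, and these held 2, 1, 2 and 2 genes past the threshold. The last stretch, from Olfr671 to Olfr692, had a median of 0.29 and 0 genes past it. Among all genes, 2.52% were higher past the threshold, so 0 among 18 or 19 genes is no trait of a stretch. The absence of genes past the threshold at the ends also did not hold where the mean and SD were taken in other ways. Olfr569 of the first stretch and Olfr679 of the last were then past the threshold under 3 alternatives, and Olfr692 under 1 of them. Mean log2 signal moved with position as well, with a median of 6.23 in the first stretch, 6.93 in the third and 6.39 in the last, and the part of signal in this order was not tested. Olfr617, Olfr618 and Olfr619, which follow each other on the chromosome and all belong to MOR31, had differences of 0.97, 0.74 and 1.31. The beta-globin genes interrupt the cluster after Olfr630. The 65 receptors before them had a median difference of 0.49 and the 48 after them 0.38, with 5 and 2 genes past the threshold.

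**Figure D3:**
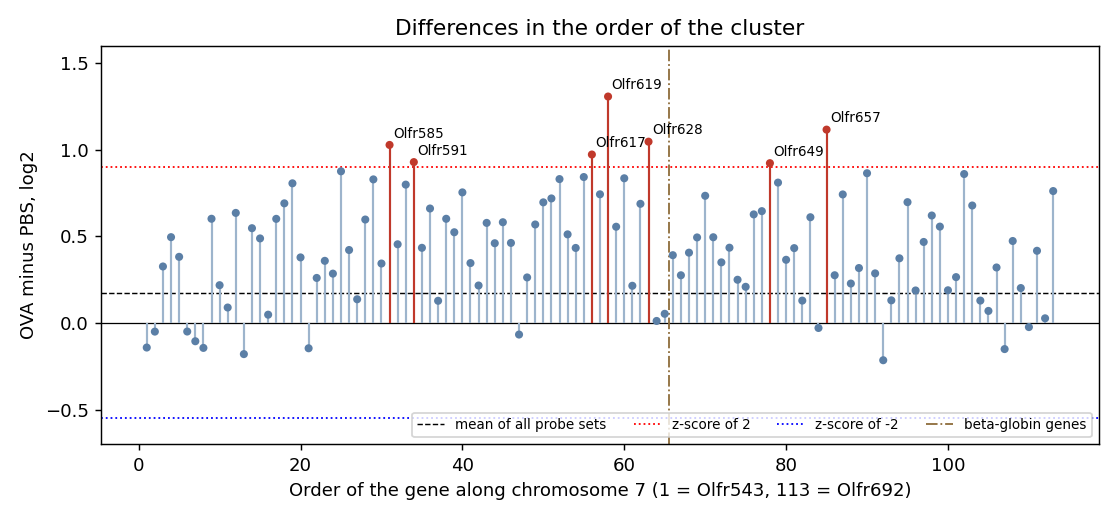
Log2 difference OVA minus PBS (y axis) of the 113 class I receptor genes in their order along chromosome 7 (x axis), with genes past the upper threshold in red. The vertical line marks the beta-globin genes. The 7 genes in red lie between Olfr585 and Olfr657, and no gene reaches the line for a z-score of -2 at -0.55.

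Receptors with a higher mean signal, which includes the OVA value, had larger differences. The 38 receptors of lowest mean signal had a median difference of 0.28, the 38 in the middle 0.36 and the 37 of highest signal 0.66. In this order, 2, 1 and 4 genes were past the upper threshold, against 2.52% of all genes. Over the 113 genes, Pearson's r between difference and mean signal was 0.40 and Spearman's rho was 0.43. Both measures come from the same 2 arrays, so this is a description only. Against the PBS value alone, r was 0.20.

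Some receptors of this cluster are nearly identical at the start of their coding sequence. Of 98 receptors in the RefSeq table of gene starts, 75 have their start at the ATG of the coding sequence, and the first 50 coding bases of these were compared in all 2775 pairs without gaps. Median identity was 34% over all pairs and 44% over the 99 pairs of the same family. In 9 pairs it was 90% or more, and the median gap between the differences of such a pair was 0.18, against 0.30 over all pairs. Probe sequences were not used here, so it was not tested whether one receptor is read by the probes of another. The starts of 3 such pairs are given below (GRCm38.p6), because 1 of them includes a gene past the threshold and they show both close and unlike values. Capitals mark the single base at which the pair differs.
Olfr583, chr7:103051300-103051349, plus strand: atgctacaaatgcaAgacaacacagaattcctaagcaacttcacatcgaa
Olfr585, chr7:103097743-103097792, plus strand: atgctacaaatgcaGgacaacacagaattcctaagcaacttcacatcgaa
Olfr611, chr7:103518333-103518382, minus strand: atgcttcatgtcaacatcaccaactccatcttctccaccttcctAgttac
Olfr612, chr7:103539183-103539232, minus strand: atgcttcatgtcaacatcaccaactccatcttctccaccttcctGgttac
Olfr671, chr7:104975934-104975983, minus strand: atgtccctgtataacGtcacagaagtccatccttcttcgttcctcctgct
Olfr675, chr7:105024917-105024966, minus strand: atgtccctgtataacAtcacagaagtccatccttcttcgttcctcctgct

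The MOR14 receptors Olfr583 and Olfr585 had differences of 0.83 and 1.03. Their PBS log2 values were unlike, at 7.20 and 5.90, and that of Olfr585 lay below the lower quartile of the array. The MOR15 receptors Olfr611 and Olfr612 had differences of 0.72 and 0.83. The MOR32 receptors Olfr671 and Olfr675 differed more, at 0.19 and 0.62, with PBS log2 values of 6.00 and 5.73. Olfr583 and Olfr585 thus lay on either side of the threshold with starts that differ at 1 of 50 bases.

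The bases before the gene start were searched for the homeodomain core, since homeodomain factors such as Lhx2 and Emx2 act on receptor promoters. The letters TAATNA, searched on both strands, were present in the 250 bases before the start of 61 of the 98 receptors (62.2%), in 64.3% of 843 other olfactory receptor genes and in 24.3% of all 32851 starts in the table. These stretches are poor in G and C, with a median of 36.0% in class I receptors, 33.6% in the other receptors and 52.4% in all starts, and the part of base composition in the share was not tested. Receptors with TAATNA had a median difference of 0.42 and the 37 without it 0.49. For 75 of the 98 receptors the start is the ATG, so that these bases lie before the coding sequence and not before an annotated 5′ exon. The stretches of Olfr619 and Olfr544 are given below as examples. Olfr619 was past the threshold with a PBS value below the lower quartile, and Olfr544 had nearly equal values. Both are among the 23 receptors with a start other than the ATG, and 17 of those 23 have TAATNA. No link between the motif and the differences is drawn from these examples. Capitals mark TAATNA on either strand, with 2 matches for Olfr619 and 0 for Olfr544, and the share of G and C is 23.6% and 51.6%.
Olfr619, chr7:103603339-103603588, plus strand: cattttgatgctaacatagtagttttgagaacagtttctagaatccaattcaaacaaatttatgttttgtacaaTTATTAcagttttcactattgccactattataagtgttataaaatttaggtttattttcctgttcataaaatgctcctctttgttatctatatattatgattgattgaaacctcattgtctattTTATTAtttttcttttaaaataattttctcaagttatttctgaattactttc
Olfr544, chr7:102488308-102488557, minus strand: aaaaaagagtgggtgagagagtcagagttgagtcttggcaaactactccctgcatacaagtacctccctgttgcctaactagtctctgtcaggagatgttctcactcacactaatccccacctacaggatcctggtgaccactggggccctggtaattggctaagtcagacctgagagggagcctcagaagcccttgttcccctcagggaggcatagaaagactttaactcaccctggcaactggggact

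The distribution of the class I differences lay almost on that of the other olfactory receptor genes, most of which are of class II. The 969 protein-coding receptor genes outside this range had a median difference of 0.43 (quartiles 0.23 and 0.66), the same to 2 decimals as the class I genes. Of these, 81 (8.36%) were higher past the threshold and 0 were lower, against 7 of 113 in class I. The share above the mean of the array was 79.6% in class I and 79.7% in the other receptors. The 19 class I pseudogenes, remnants that encode no complete receptor, had a median difference of 0.50. Of these, 4 (21.1%) were higher past the threshold and 0 were lower, against 2.52% and 1.66% of all genes. The median log2 value of the pseudogenes was 6.15 in PBS and 6.70 in OVA. The median of the pseudogenes was thus no lower than that of the receptor genes, a comparison that had no test.

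**Figure D4:**
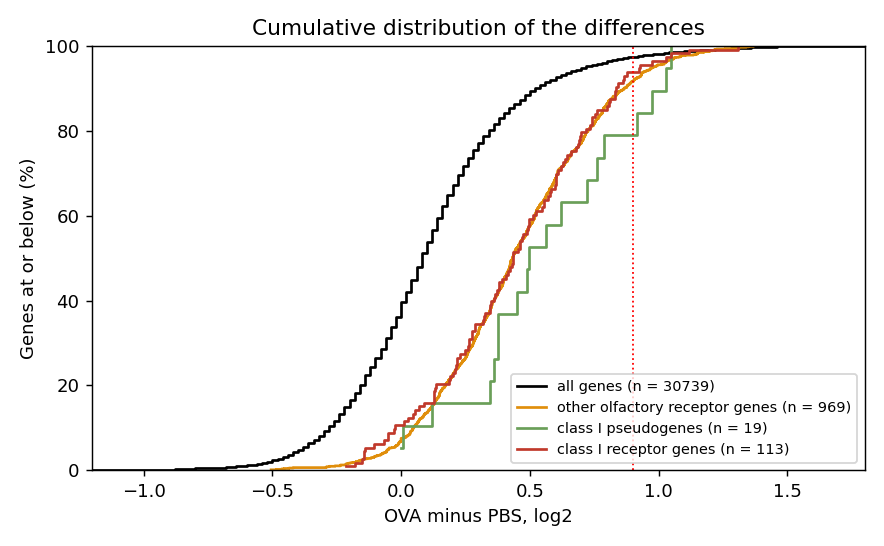
Cumulative share of genes (y axis, percent) at or below a given log2 difference OVA minus PBS (x axis) for class I receptor genes, class I pseudogenes, the other protein-coding olfactory receptor genes and all genes. The dotted line is a z-score of 2. The curves of class I and of the other receptors nearly coincide, with medians of 0.43 in both, against 0.07 for all genes.

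Markers of the neurons that express these receptors lay close to the median of all genes. Of 16 marker and transduction genes of olfactory sensory neurons, 0 were past either threshold, with a median difference of 0.02. The difference was above 0 for 9 of the 16 and below 0 for 7. The summed intensity of the 16 markers was 12377 in PBS and 11380 in OVA, while that of the 113 receptors was 11182 and 15858. Most of the marker sum came from Stoml3, Ric8b and S100a5, with PBS log2 values of 11.73, 11.56 and 11.47. The median of mean log2 signal was 7.55 over the markers and 6.66 over the receptors. The part of signal in the contrast of the sums was not tested. Omp, a marker of mature sensory neurons, had log2 values of 8.31 in PBS and 8.21 in OVA. Stoml3, a protein of their cilia, had values of 11.73 and 11.37, and Gnal, the G protein subunit that couples to the receptors, 10.12 and 9.81. Cngb1 and Ano2, also on the list, went the other way, with differences of 0.21 and 0.18. Rtp1 and Rtp2, which bring receptors to the cell surface, had low values of 4.92 and 4.43 in PBS and differences of 0.22 and 0.05. Of 11 regulators of receptor choice, 0 were past the threshold, and their median difference was -0.06. Among them were Lhx2 (-0.06), Ldb1, its cofactor (-0.32), and Bcl11b, which favors class II over class I (-0.03). The whole OB was measured, and the part of its own cells in the values of markers and regulators was not tested. The marker sum is thus not a measure of sensory axons alone.

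Markers of other cells are given beside these values. Some markers of OB neurons had high log2 values, such as Th (14.23 in PBS and 13.61 in OVA), Calb2 (15.63 and 15.27) and Eomes (11.89 and 11.70). Tbr1 and Tbx21 were both at 7.45 in PBS, near the median of all genes (7.22). Of the 8 OB neuron markers measured, 3 were lower past the threshold, namely Cdhr1 (difference -0.87), Th (-0.62) and Slc17a7 (-0.57). Among all genes, 1.66% were lower past it. The difference was below 0 for 7 of the 8 and was 0.22 for Tbx21. The summed intensity of the 8 was 85008 in PBS and 62395 in OVA. Of 6 measured markers of the supporting cells and glands of the olfactory epithelium, 0 were past the threshold (median difference 0.15), with summed intensities of 1561 and 1503. Most of this sum was Ermn, a gene also known from oligodendrocytes (1223 in PBS and 1112 in OVA). The other 5 all had differences above 0, and their summed intensity was 338 in PBS and 391 in OVA. Cyp2g1, which defines the supporting cells, had values of 5.84 and 5.93, under the lower quartile of each array. The part of any of these cells in the receptor values was not tested.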

How the data were processed

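RNA of the OB was measured on 2 arrays, 1 per group. Gene-level values were made by the authors with Expression Console (1.4.1 in the submitters' processing notes, which name RMA), using the signal space transformation form of robust multi-chip averaging, and were deposited as linear intensities. Neither the build of the annotation nor a filter on dim probe sets is stated (not given in the sources used here). An array gives no counts or depth.

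Differences and z-scores used numpy 2.4.6 and pandas 2.3.3 under Python 3.11.15. The z-score calculation was first run on simulated, normally distributed differences with added shifts. That run checks the calculation only, since its spread did not vary with signal. Loess centring used a span of 0.2 (statsmodels 0.14.6), and matplotlib 3.10.9 drew the figures. The threshold of 2 is the one the study used, without a stated formula for the z-score. Genes were named from probe sets of 1 gene in the platform annotation. Outside the receptors studied, symbols were updated through RefSeq for 983 probe sets. A gene with several probe sets took their mean. Receptors named are those past the threshold, the 5 on either side of it, the 5 highest and lowest differences, the 5 brightest and 4 with known roles. Other genes are named as members of a family, a pair or a marker list. The receptors and lists were chosen with earlier results of these data known. Family names of the current nomenclature were planned, and MOR names were used because RefSeq gives these. The 7 alternatives are 3 other definitions of the z-score, a filter on signal, an added 1.5-fold difference, loess centring and the brightest probe set.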

Additional observations from a re-analysis of the deposited data

Results flagged for a closer look

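Probe sets of 4 of the 19 pseudogenes, which are not counted among the 113 receptor genes, were past the upper threshold (2.52% of all genes were). They were Olfr626-ps1 (z-score 2.41, log2 values of 5.87 in PBS and 6.92 in OVA), Olfr625-ps1 (2.35, with 5.16 and 6.19), Olfr548-ps1 (2.21, with 5.73 and 6.70) and Olfr590-ps1 (2.04, with 6.07 and 6.98). RefSeq synonyms place Olfr548-ps1 and Olfr625-ps1 in MOR31. Olfr650-ps1, also of that family, had a difference of 0.01. The PBS values of Olfr626-ps1, Olfr625-ps1 and Olfr548-ps1 lay below the lower quartile of the array.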

How the results depend on the processing

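How many class I receptor genes were past the upper threshold depended on how the mean and SD were taken, and 0 were past the lower one under all 7 alternatives. The upper count was 15 of 113 with the mean and SD of the 1000 probe sets nearest in signal (3.06% of all genes), 21 when the median and its absolute deviation replaced the mean and SD (4.58%), 16 when only probe sets of 1 gene set the mean and SD (3.66%) and 2 of 35 among probe sets above the median signal (2.46%). It was 8 after loess centring and 7 with an added 1.5-fold difference or the brightest probe set. The last-named alternatives could not raise or lower the receptor counts. The upper threshold already lies at 1.87-fold, 0 receptors were past the lower one, and each receptor had 1 probe set. With the median absolute deviation, all genes past the threshold numbered 1408 higher and 921 lower, against 776 and 509. They numbered 941 and 317 with the 1000 nearest probe sets, 1125 and 381 with the mean and SD of 1-gene probe sets, and 425 and 175 of 17283 above the median signal. Loess centring moved the median of all genes from 0.07 to -0.06 and that of the class I genes from 0.43 to 0.26, and 93 of the 113 lay above the former, against 96 without it. The causes were not tested. Olfr628 and Olfr657 were past the threshold under every alternative, of which the 1.5-fold difference and the brightest probe set could not move them. Olfr591 (z-score 1.73) and Olfr649 (1.72) missed it among probe sets above the median signal, where Olfr585, Olfr617 and Olfr619 had no value. No paired analysis was possible because each group had 1 array. Depth is unknown for intensities, and low signal limits the 15 receptors below the lower quartile on both arrays.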

Other observations

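Other olfactory receptor genes lie in the same stretch of chromosome 7 under older symbols outside the range. Of 9 such genes, 8 had a probe set of their own, 0 were past the threshold, and their median difference was 0.42. They included Olfr64, which lies near the beta-globin genes (log2 values of 6.54 in PBS and 7.41 in OVA, z-score 1.94), and Olfr67 of MOR31 (6.86 and 7.60, z-score 1.57). Olfr78, known from the carotid body and kidney, shares its probe set with Olfr560, and this had log2 values of 5.68 and 5.67. The probe set shared by Olfr564 and Olfr560 had a difference of 0.50 and that shared by Olfr639 and Olfr643 one of 0.41.

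Genes of other families are interspersed among the receptors, and 20 of 25 that were listed (beta-globins, Trim, Ubqln and Usp17l genes) had a probe set of their own. None was past the threshold, and their median difference was 0.27, between 0.07 for all genes and 0.43 for the receptors. The median of their mean log2 signal was 6.45, against 7.29 for all genes and 6.66 for the receptors. The part of signal in this order was not tested. Trim genes, several of which act in antiviral defense, had a median of 0.11 over 10 genes, from -0.06 for Trim21 to 0.51 for Trim30c. The Usp17l genes, multicopy deubiquitinases, had a median of 0.37 over 5 genes. The embryonic globin Hbb-y had log2 values of 7.46 in PBS and 8.03 in OVA, and the adult globins Hbb-bs and Hbb-bt had no probe set of their own. Of the erythroid markers, Alas2 (6.61 and 6.86) and Slc4a1 (6.26 and 6.32) were measured, and the part of blood in these values was not tested.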
